A study of Mus musculus with 8 samples.

Results

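DNA-RNA immunoprecipitation sequencing (DRIP-seq) peaks at transcription start sites (TSSs) were examined in muscle stem cells (MuSCs) of mice with and without Kmt5b. A TSS peak was an autosomal union peak with an assigned gene, a centre within 1000 bp of the TSS of that gene and a mean score over 30 across the 6 libraries. These criteria left 315 TSS peaks in 315 genes, of 28265 union peaks in all and 1.22% of the 25815 autosomal peaks that passed the same level limit. Another 24 autosomal peaks lay as near to a TSS but did not pass the level limit, and 8 such peaks above it lay on the X chromosome.

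Both groups carried the tamoxifen-inducible Cre driver Pax7CreERT, which acts in cells that express Pax7, the transcription factor that marks MuSCs. Ctrl mice (Pax7CreERT/Suv4-20h1WT) kept both Kmt5b alleles, and Kmt5b sKO mice (Pax7CreERT/Suv4-20h1KO) lost the gene in these cells. Kmt5b, also named Suv420h1, methylates lysine 20 of histone H4. Mice on a C57BL/6 background received tamoxifen at 8 to 12 weeks of age, and DNA of cultured MuSCs, 3 biological replicates per genotype, was immunoprecipitated with S9.6, an antibody that binds RNA:DNA hybrids.

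An R-loop forms when a nascent transcript pairs with its template DNA strand and displaces the other strand. R-loops are common just downstream of active promoters, above all at CpG islands whose non-template strand is richer in G than in C. Helicases, RNase H enzymes and factors that package nascent RNA remove or prevent them.

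The deposited score was the signal summed over a peak and scaled to Drosophila spike-in reads, so values are given as scores and, where peaks are compared with each other, as scores per kb of peak. The summed score over all peaks ranged from 3893768 to 4729631 in Ctrl and from 4699599 to 4930261 in Kmt5b sKO libraries. A total of 5 windows of 300 bases are printed, each at a gene named in the results below. Of these 4 are RefSeq promoters (GRCm38.p6, 250 bases before to 50 after the start), and for Parp16, whose peak centre lies 19190 bp from its RefSeq start, the middle of the peak is given. Sequences run 5′ to 3′ on the strand of the gene, and capitals mark the TATA box TATAAA, the CCAAT box and the GC box GGGCGG, each searched on both strands.

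Musk, one of the largest gains (chr4:58285712-58286011, plus strand): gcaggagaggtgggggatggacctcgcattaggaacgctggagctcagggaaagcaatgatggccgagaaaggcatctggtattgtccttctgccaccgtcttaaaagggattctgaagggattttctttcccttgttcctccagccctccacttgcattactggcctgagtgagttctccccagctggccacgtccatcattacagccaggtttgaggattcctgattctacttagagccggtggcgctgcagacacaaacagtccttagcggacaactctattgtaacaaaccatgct

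Zfp428, a gain with a small adjusted p (chr7:24506837-24507136, plus strand): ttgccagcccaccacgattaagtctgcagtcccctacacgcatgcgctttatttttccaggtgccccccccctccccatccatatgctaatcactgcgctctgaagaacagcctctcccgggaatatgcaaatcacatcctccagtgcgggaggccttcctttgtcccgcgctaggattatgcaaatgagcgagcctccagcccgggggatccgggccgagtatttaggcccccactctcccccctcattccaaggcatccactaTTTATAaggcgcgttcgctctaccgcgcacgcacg

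Zfp36, a gain just before the RefSeq start (chr7:28379179-28379478, minus strand): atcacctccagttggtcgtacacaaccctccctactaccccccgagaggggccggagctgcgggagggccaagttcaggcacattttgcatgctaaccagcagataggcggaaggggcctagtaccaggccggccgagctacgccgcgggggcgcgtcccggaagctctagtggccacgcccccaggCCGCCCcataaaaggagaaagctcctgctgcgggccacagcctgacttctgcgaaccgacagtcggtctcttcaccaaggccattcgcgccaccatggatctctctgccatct

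Ubb, a dense peak that was not called (chr11:62550921-62551220, plus strand): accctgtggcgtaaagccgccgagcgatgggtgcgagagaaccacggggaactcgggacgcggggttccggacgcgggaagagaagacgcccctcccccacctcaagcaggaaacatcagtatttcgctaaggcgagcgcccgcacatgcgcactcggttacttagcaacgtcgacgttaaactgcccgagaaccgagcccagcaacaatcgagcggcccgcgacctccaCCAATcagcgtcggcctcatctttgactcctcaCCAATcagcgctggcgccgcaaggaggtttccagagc

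Parp16, the single loss (middle of the peak, chr9:65195350-65195649, plus strand): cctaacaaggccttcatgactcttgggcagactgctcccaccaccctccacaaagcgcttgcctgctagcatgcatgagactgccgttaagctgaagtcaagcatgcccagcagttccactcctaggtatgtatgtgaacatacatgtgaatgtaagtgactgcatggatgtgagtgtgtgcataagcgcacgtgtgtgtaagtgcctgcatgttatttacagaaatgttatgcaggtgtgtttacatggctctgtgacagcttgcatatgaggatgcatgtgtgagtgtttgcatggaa

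The windows differed in base composition, and those of Zfp36 and Ubb lay outside the scored peaks of these genes. The Musk promoter had a GC content of 52% and 8 CpG sites, against 58% and 19 for Zfp428, 63.7% and 21 for Zfp36 and 62.3% and 33 for Ubb. The Parp16 window had a GC content of 48% and 4 CpG sites, and held none of the motifs searched. RefSeq promoters were matched by symbol for 175 of the 315 genes. Of the 206 promoters of 166 protein-coding TSS-peak genes, 63.6% held GGGCGG, against 35.7% of all 32851 promoters in the table. CCAAT was in 38.3% of them against 37.4% of all promoters, and TATAAA in 7.77% against 13.6%. The 32851 promoters were not limited to protein-coding genes, so the sets are unlike. A match describes the letters only.

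TSS peaks carried more R-loop signal in Kmt5b sKO than in Ctrl MuSCs. The median score over the 315 peaks was 43, 47 and 43 in the Ctrl libraries and 74, 76 and 76 in the Kmt5b sKO libraries, so the groups did not overlap. In bulk libraries such as these, more cells with an R-loop and more R-loops per cell cannot be told apart. Per kb of peak, the median came to 28.4 ± 0.905 for the Ctrl libraries and 47.1 ± 0.482 for the Kmt5b sKO libraries (SD, n = 3 each), a ratio of 1.66. The mean score per kb was 43 ± 4.18 in Ctrl and 82.9 ± 3.12 in Kmt5b sKO, a ratio of 1.93. A total of 6 peaks above 200 per kb held 42.6% of the summed score at TSSs, and without these 6 the ratio of the means was 1.65.

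The share of the summed score of all peaks that fell on TSS peaks does not depend on the scaling of a library. It was 0.801%, 0.81% and 0.831% in Ctrl and 1.39%, 1.33% and 1.28% in Kmt5b sKO. Without the 6 densest peaks it was 0.555%, 0.515% and 0.553% in Ctrl and 0.7%, 0.7% and 0.709% in Kmt5b sKO. In both forms every Kmt5b sKO library lay above every Ctrl library.

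**Figure D1:**
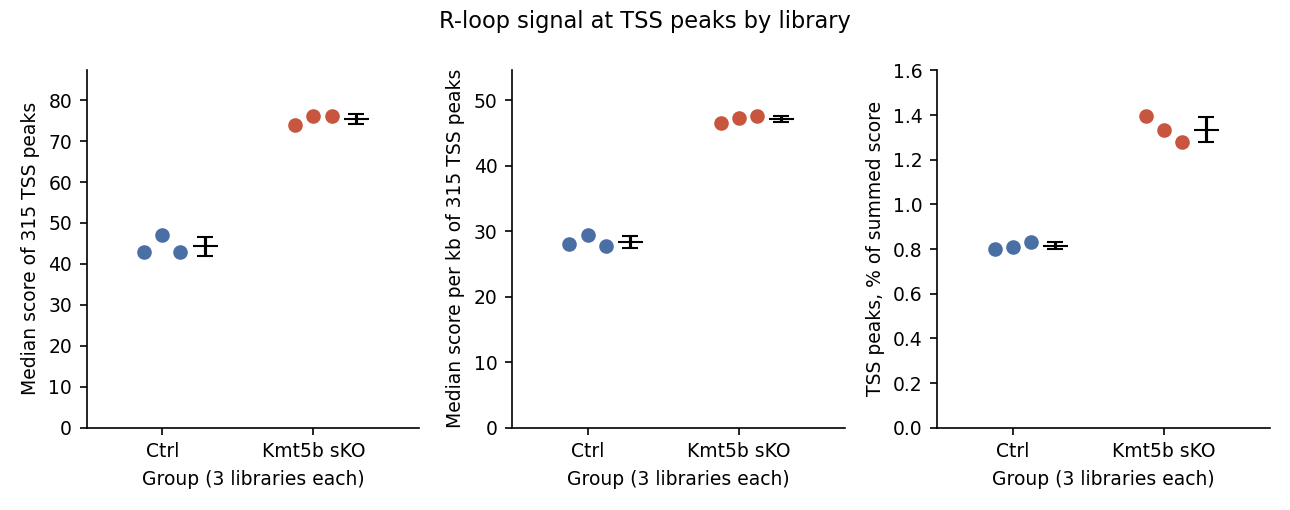
R-loop signal at the 315 TSS peaks in each library, as the median score, the median score per kb and the percentage of the summed score of all union peaks. Points are libraries, and the bar beside them is the mean with its SD (n = 3). The Kmt5b sKO libraries lie above the Ctrl libraries in each panel, for example at 74 to 76 against 43 to 47 for the median score.

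In the limma test over all tested peaks, 32.9% were called higher in Kmt5b sKO and 0.883% lower, where a call needed more than a 1.5-fold change and a Benjamini-Hochberg adjusted p below 0.1. Among TSS peaks, 179 of 315 (56.8%) were called higher, 1 was called lower and 135 were not called. The median log2 fold change of TSS peaks was 0.75 (quartiles 0.36 and 1.06), against 0.35 (0.05 and 0.76) over all tested peaks. Values were above 0 in 289 of 315 TSS peaks (91.7%), against 78.7% of tested peaks. All 3 Kmt5b sKO libraries lay above all 3 Ctrl libraries at 206 TSS peaks, where 41.5% of tested peaks did so, and the reverse held at 5, where 3.81% of tested peaks did so.

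Centring each library on its median peak took 0.46 off the log2 fold changes, and the median over all tested peaks was then −0.11. On this scale the median of TSS peaks was 0.29. Of them 74 (23.5%) passed as higher and 12 as lower, where 10.3% of tested peaks were called higher and 11.9% lower. The gene of a peak in the deposited table was the one of longest overlap, and a further 709 tested peaks had a centre within 1000 bp of some GENCODE gene start without being TSS peaks by the table's own gene. Of these, 194 (27.4%) were called higher and the log2 fold changes had a median of 0.32, and over all 1023 peaks near any start the count was 373 (36.5%).

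**Figure D2:**
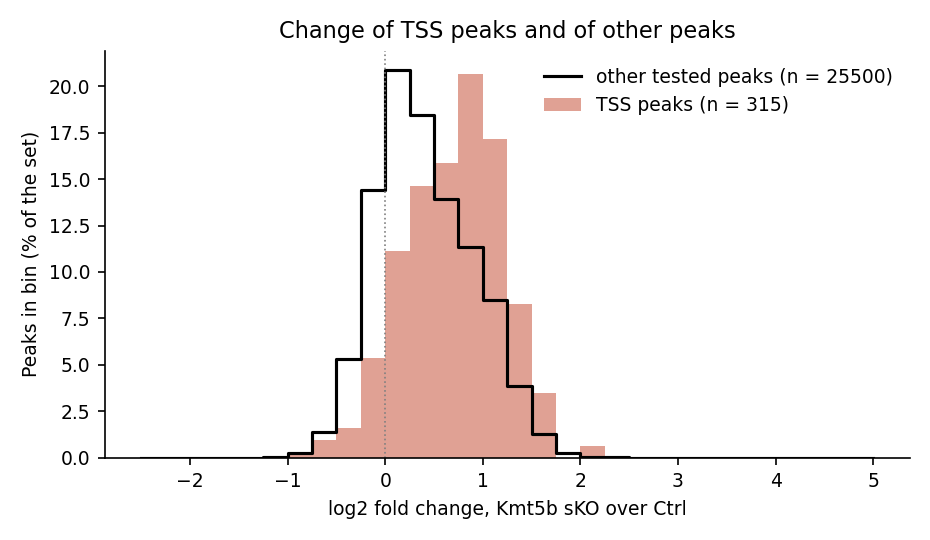
Distribution of the log2 fold change, Kmt5b sKO over Ctrl on the log2(score + 1) scale, for 315 TSS peaks (bars) and 25500 other tested peaks (line). The vertical axis is the percentage of each set per bin of 0.25. The medians were 0.75 and 0.35.

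TSS peaks were also set beside other peaks of the same genes. In 130 of the 315 genes, 451 further tested peaks lay over 1 kb from the TSS. Of these gene-body peaks 86 (19.1%) were called higher, while the TSS peak was called higher in 65 of the 130 genes (50%). The former is a share of peaks and the latter a share of genes, and a gene could hold several gene-body peaks. In 32 genes the TSS peak alone was called higher, in 24 genes gene-body peaks alone, in 33 both and in 41 neither. The TSS peak had the larger log2 fold change in 96 of 130 genes, with medians of 0.61 at the TSS and 0.29 over the gene bodies. Gene-body peaks were longer, with a median of 3000 bp against 1600 bp, and the comparison within genes was not matched for length.

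Shorter peaks were called higher more often in the whole table, so TSS peaks were set beside other tested peaks of like length. Of TSS peaks up to 1000 bp long, 42 of 69 (60.9%) were called higher, against 69.9% of other peaks of that length. From over 1000 to 1600 bp the share was 52.8% of 106 TSS peaks against 56.5%. From over 1600 to 3000 bp it was 68.4% of 95 against 31.4%, and above 3000 bp it was 35.6% of 45 against 8.25%. The share was thus above that of other peaks in the 2 longer classes and below it in the 2 shorter. When the shares of other peaks were weighted to the lengths of the TSS peaks, their share called higher came to 45%, and to 37.9% when weighted to length and repeat content together.

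The position of a peak on its gene separated the TSS peaks. At 226 genes the peak covered the TSS. Of these, 87 had their centre before the gene, and 55 (63.2%) were called higher. Another 139 had their centre downstream of the TSS, and 87 (62.6%) were called higher. The remaining 89 peaks lay wholly downstream of the TSS, and 37 (41.6%) were called higher. The gene end was not used, so at a short gene such as Rnu2-10 (191 bp) most of the peak lay beyond it. In protein-coding genes alone, the shares were 34 of 56, 51 of 92 and 20 of 66 in the same order, and the median log2 fold changes were 0.73, 0.65 and 0.43. Another gene start lay in 38 TSS peaks, in 22 of them on the other strand, as at Thoc6, Ppp4c, Dnase1, Hotair and Tuba1b. A total of 50 peaks spanned their whole gene, as at Myod1, Dnase1 and Mir29a. The score of such a peak is not that of the named start alone.

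Peaks past the TSS of coding genes lay at starts of high G content on the non-template strand. In the first 500 bp of the gene, the 66 starts had a median GC skew (the excess of G over C on the non-template strand, as a share of both) of 0.147, a median GC content of 67.6% and a CpG observed-to-expected ratio of 0.885. For the 148 coding starts covered by their peak the medians were 0.0807, 60.6% and 0.716. Over 20807 autosomal coding genes they were 0.0517, 58.2% and 0.603. The skew was above 0 at 90.9% of starts with a peak past the TSS, at 68.2% of those covered by a peak and at 66.9% of all coding starts. Across the 214 coding TSS peaks, Spearman's rho of the log2 fold change with skew was −0.16 and with the CpG ratio −0.11, as a description over peaks that share libraries.

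The repeat content of the peak, as the share of soft-masked bases, went with the size of the change. Of TSS peaks with up to 10% repeats, 9 of 42 (21.4%) were called higher, and 54 of 125 (43.2%) with over 10% to 25%. The shares were 74 of 99 (74.7%) with over 25% to 50% and 42 of 49 (85.7%) above 50%. Other tested peaks in these classes were called higher in 14.3%, 12.3%, 36.5% and 72.3%. Within protein-coding genes alone the 4 TSS shares were 21.4%, 41.7%, 79.2% and 81.2%, and Spearman's rho with the log2 fold change was 0.49 (n = 214 peaks). Only unique alignments were kept, and the part of read placement in repeats was not tested.

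**Figure D3:**
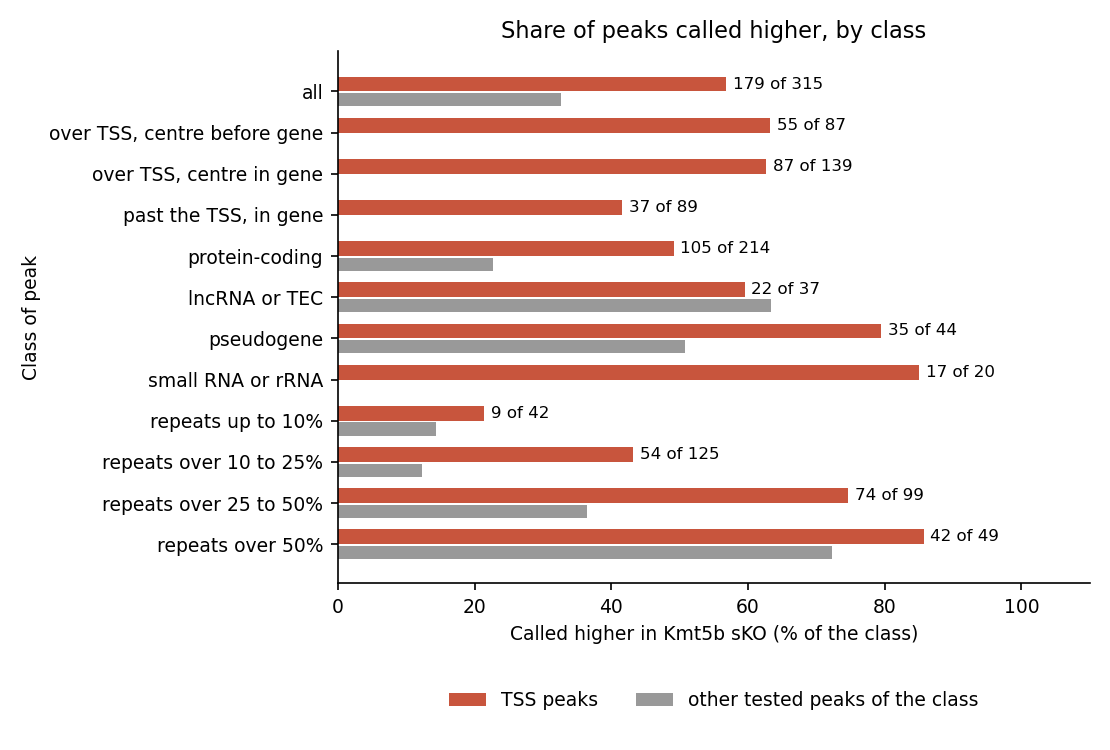
Percentage of peaks called higher in Kmt5b sKO by peak position, gene class and repeat content (soft-masked share of the peak). In the position labels, in gene means downstream of the TSS. Red bars are TSS peaks with their counts, and grey bars are other tested peaks of the class, drawn where the class holds over 50. TSS peaks rise from 21.4% to 85.7% over the repeat classes.

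The genes were 214 protein-coding, 44 pseudogenes, 37 long noncoding or unclassified (TEC) and 20 small RNA genes including 1 rRNA. The calls were 105 higher and 1 lower in the protein-coding genes (49.1% higher), where 22.7% of other tested peaks in coding genes were called higher. Of the pseudogenes 35 (79.5%) were called higher, against 50.8% of 124 other pseudogene peaks. The noncoding genes had 22 (59.5%) called higher, against 63.3% of 654 other peaks, and the small RNA genes 17 of 20. The median repeat content was 17.8% at coding genes, 36.9% at pseudogenes, 41.1% at noncoding genes and 48.1% at small RNA genes.

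The starts used here are those of the gene records in the deposited table. Of the 175 genes with a RefSeq promoter, the RefSeq start lay within 100 bp of the table's start in 132 and over 1000 bp away in 17. A RefSeq start lay within 1000 bp of the peak centre at 158 genes, of which 76 (48.1%) were called higher at a median of 0.60 in log2 fold change. At the other 17 it was 8 higher and 1 lower, and at the 140 genes with no RefSeq promoter matched 95 (67.9%) were called higher.

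Among named genes, the largest gains with separated libraries were at Zfp110, Sirpb1c, Musk, Gpsm3, Med18, Eno1, Zfhx4 and Btbd2. A total of 11 predicted genes with no symbol of their own had gains above the last of these. Of the named genes, all but Zfhx4 had a mean Ctrl score below the level limit, from 17 at Med18 to 26.7 at Eno1. Their peaks passed the limit, set on the mean over both groups, through the Kmt5b sKO scores. A peak with such a Ctrl mean can enter only with a higher Kmt5b sKO mean, so it can appear only as a gain.

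Zfp110, a zinc finger gene, scored 21, 17 and 14 in Ctrl and 74, 58 and 40 in Kmt5b sKO (log2 fold change 1.64, SE 0.40, limma adjusted p = 0.000345). Sirpb1c, of the signal regulatory protein family, scored 18, 12 and 22 against 58, 45 and 57 (1.60, SE 0.41, adjusted p = 0.000733). Musk, the receptor tyrosine kinase that organises the neuromuscular junction, scored 23, 17 and 18 against 48, 81 and 52 (1.57, SE 0.37, adjusted p = 0.000251). In each of the 3 the lowest Kmt5b sKO library was well above the highest Ctrl library, and all 3 peaks were low in Ctrl. The Musk peak covered its start, and 19.2% of it was repeat sequence, while 63% of the Sirpb1c peak was.

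Gpsm3, a modulator of G protein signalling, scored 24, 26 and 29 in Ctrl and 123, 66 and 62 in Kmt5b sKO (log2 fold change 1.56, limma adjusted p = 3.13e-06). Med18, a Mediator subunit, scored 18, 22 and 11 against 71, 65 and 24 (1.5, adjusted p = 0.0028). Kmt5b sKO replicate 3 of Med18 lay only just above the highest Ctrl library, and its call was lost under quantile normalization and when each peak kept its own variance. Eno1, which encodes a glycolytic enolase, scored 20, 25 and 35 against 67, 66 and 90 (1.47, adjusted p = 2.44e-05). Zfhx4, a homeodomain zinc finger gene, scored 37, 37 and 53 against 127, 100 and 125 (1.46, adjusted p = 2.06e-08). Btbd2, a BTB domain gene, scored 24, 26 and 24 against 82, 67 and 60 (1.45, adjusted p = 6.4e-05). The Zfhx4 and Btbd2 groups were each tight relative to the distance between them.

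Parp16, an endoplasmic reticulum ADP-ribosyltransferase, was the only TSS peak called lower. It scored 78, 105 and 69 in Ctrl and 52, 47 and 43 in Kmt5b sKO, and the groups did not overlap (log2 fold change −0.80, SE 0.24, limma adjusted p = 0.00483). The peak covered the start of the gene record, but 1 RefSeq start of the gene is given, 19337 bp downstream of it. The peak at Atp5o, an ATP synthase subunit gene chosen after its values were seen, also had separated libraries at 204, 251 and 184 in Ctrl and 152, 146 and 125 in Kmt5b sKO (−0.58, adjusted p = 0.00348). Its change was just under the fold limit. Kmt5b itself had no TSS peak, and its union peak lay 42979 bp into the gene, so these data do not check the deletion.

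**Figure D4:**
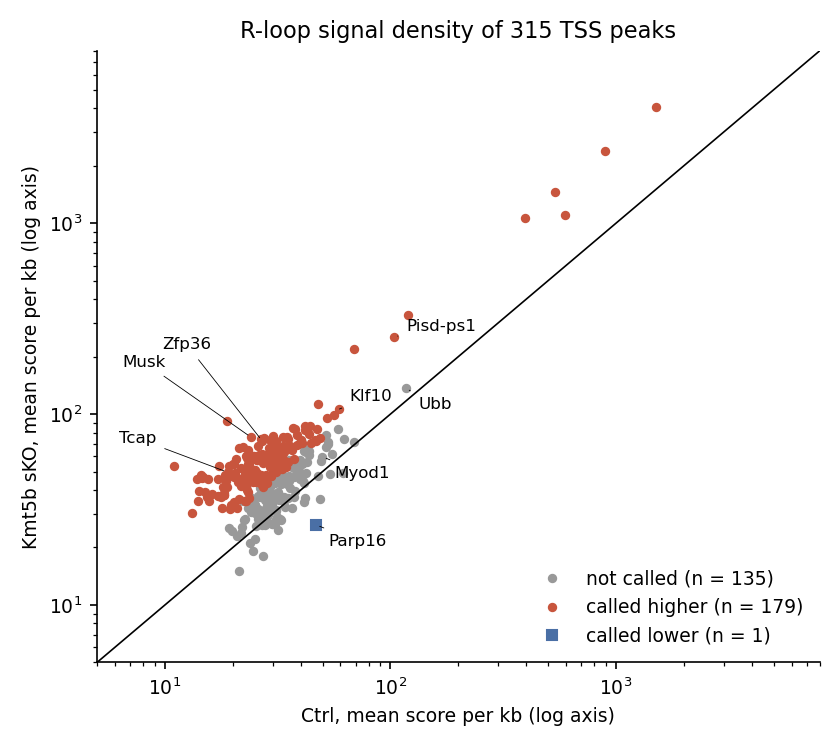
Mean score per kb of each of the 315 TSS peaks in Ctrl (horizontal) and Kmt5b sKO (vertical), on log axes, with the line of equal values. Red points were called higher (179), the blue square lower (1), and grey points were not called (135). The densest peaks lie above the line, and Parp16 lies below it.

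The densest TSS peaks of named genes had different outcomes. Pisd-ps1, a pseudogene of a phospholipid enzyme gene, had 178 per kb over the 6 libraries and scored 233, 261 and 249 in Ctrl and 660, 606 and 558 in Kmt5b sKO (log2 fold change 1.29, limma adjusted p = 7.97e-16). Ubb, a polyubiquitin gene, had 127 per kb and scored 63, 86 and 61 against 66, 76 and 104 (0.22, adjusted p = 0.465). The Pisd-ps1 groups were far apart, whereas the Ubb groups overlapped. The Ubb peak, of 600 bp, lay past the promoter shown above and inside the gene. It held another RefSeq start of Ubb, 168.5 bp from the peak centre.

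Klf10, a TGF-β-induced transcription factor, had 82.8 per kb and scored 117, 90 and 78 against 154, 197 and 159 (log2 fold change 0.84, limma adjusted p = 9.22e-05). Thoc6, a subunit of the THO complex that packages nascent RNA, had 74.1 per kb and scored 398, 458 and 371 against 695, 807 and 739 (0.87, adjusted p = 5.29e-08). The Thoc6 peak, of 7800 bp, also held the start of a gene on the other strand. The libraries were separated at Klf10 and Thoc6. Both calls were lost when libraries were centred on the median peak, as they were at 10 of the 23 named peaks called.

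Mir29a, a microRNA gene, had 70.4 per kb in a peak of 15600 bp and scored 989, 1235 and 1010 in Ctrl and 1022, 1246 and 1091 in Kmt5b sKO (log2 fold change 0.06, limma adjusted p = 0.769). It was also among the named peaks of high score with the smallest changes. The others were Dnase1 (−0.01), Ppp4c (0.01), Fermt3 (0.08), Cpeb4 (0.08) and Dhx9 (0.15), all in fold changes on the log2 scale. The Ppp4c peak, at the gene of a protein phosphatase catalytic subunit, scored 499, 743 and 530 against 564, 626 and 573, and all these groups overlapped. Dhx9, a helicase that unwinds RNA:DNA hybrids, scored 95, 109 and 93 against 126, 85 and 122. It was the single TSS peak of 32 listed genes of R-loop removal and DNA damage response. Thoc6, called higher above, was not on that list.

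By gene list, the Zfp zinc finger genes had 7 of 7 TSS peaks called higher, beside 56.8% of all TSS peaks. Their median log2 fold change was 1.13. Of 377 other tested peaks in Zfp genes, 93 (24.7%) were called higher. Zfp428 scored 82, 59 and 61 in Ctrl and 173, 196 and 160 in Kmt5b sKO (1.39, limma adjusted p = 2.55e-10). Zfp36, an RNA-binding inhibitor of mRNA stability and not a DNA-binding zinc finger factor, scored 24, 23 and 34 against 48, 83 and 86 (1.36, adjusted p = 0.000103). The lowest of the 7 changes were at Zfp710 (log2 fold change 0.60), Zfp985 (0.64) and Zfp948 (0.67), just above the fold limit. Centring on the median peak took 0.46 off, which put these genes under the limit. At Zfp428 the groups were apart by more than the range within either, and the peak spanned the promoter printed above.

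Of 3 TSS peaks in immediate early genes, Klf10 and Zfp36 were called higher. Rhob, a small GTPase gene, scored 90, 73 and 60 in Ctrl and 90, 99 and 104 in Kmt5b sKO (log2 fold change 0.41, limma adjusted p = 0.118). Of 3 histone genes, H3f3b, which encodes histone H3.3, scored 44, 45 and 51 against 111, 70 and 108 (1.00, adjusted p = 0.000227, and 0.54 without a call after centring). The nearest RefSeq start of H3f3b lay 3095.5 bp from the peak centre. Hist1h1e, a linker histone gene, scored 36, 40 and 33 against 53, 82 and 61 (0.81, adjusted p = 0.0145). The Hist1h1e call was lost without Kmt5b sKO replicate 2 (0.64), after centring (0.35) and with quantile normalization (0.24). Hist1h1b, another linker histone gene, was not called at 43, 33 and 36 against 61, 38 and 34 (0.20, adjusted p = 0.653). Calls were made at 2 of the 3 genes in each of these lists, beside 56.8% of all TSS peaks, 40% of other peaks in immediate early genes and 41.7% of other peaks in histone genes.

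Muscle genes were few among TSS peaks. Tcap, which encodes the titin cap protein telethonin of the sarcomere, scored 26, 35 and 30 in Ctrl and 71, 81 and 86 in Kmt5b sKO (log2 fold change 1.36, limma adjusted p = 2.31e-05). It was the single TSS peak of 34 listed sarcomere genes, whose 85 other tested peaks had 2 called higher and 14 lower. Myod1, the myogenic transcription factor, scored 548, 571 and 466 against 606, 620 and 675 (0.27, adjusted p = 0.12). Notch3, a receptor of MuSC quiescence, scored 25, 55 and 24 against 39, 34 and 42 (0.24, adjusted p = 0.628). The Myod1 peak, of 10600 bp, spanned the whole gene. The Myod1 groups did not overlap but the change was small and not called, and the Notch3 groups overlapped. Of 8 MuSC marker genes 5 had a union peak, against 2 of 4 endothelial, 0 of 4 fibro-adipogenic and 0 of 3 immune marker genes.

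Among genes of the cell cycle and the p53 pathway, Mdm4, an inhibitor of p53, scored 34, 43 and 56 in Ctrl and 73, 68 and 99 in Kmt5b sKO (log2 fold change 0.85, limma adjusted p = 0.0037). The call at Mdm4 was lost after centring (0.39), with quantile normalization (0.34) and when each peak kept its own variance. E2f3, a transcription factor of the cell cycle, scored 33, 16 and 23 against 44, 37 and 39 (0.77, adjusted p = 0.121). Mcm3, a subunit of the replicative helicase, scored 40, 42 and 32 against 40, 18 and 31 (−0.41, adjusted p = 0.414). The libraries were separated at Mdm4 and E2f3 and overlapped at Mcm3. E2f3 was called without Ctrl replicate 1 (1.02), without the level filter, without the variance trend and per kb, and Mcm3 was called lower after centring (−0.87) and with quantile normalization (−1.02).

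Of 9 TSS peaks in genes on the splicing, ribosomal protein and translation lists, 2 were called higher, beside 56.8% of all TSS peaks. The lists do not hold every such gene. Outside them, the TSS peaks of Prpf38a (log2 fold change 1.18), Eif4a3 (0.79) and Ddx6 (0.71) were called higher. Those of Sf1 (0.23) and Ythdc1 (0.57) were not called. Among other peaks of these lists the share was 26.7% for splicing, 5.26% for ribosomal protein and 10.7% for translation genes. Luc7l3, a splicing factor gene, was called at 47, 33 and 33 in Ctrl and 65, 57 and 53 in Kmt5b sKO (log2 fold change 0.63, limma adjusted p = 0.069), and this call was lost under equal totals, centring and quantile normalization (0.43, 0.17 and 0.02), with each peak's own variance, with a pseudocount of 5, and without Ctrl replicate 2, Ctrl replicate 3, Kmt5b sKO replicate 1 or Kmt5b sKO replicate 2. Tra2b, a splicing regulator gene, scored 61, 84 and 60 against 54, 57 and 40 (−0.43, adjusted p = 0.166), and the groups did not overlap. It was called lower after centring (−0.89), with quantile normalization (−0.95) and with library totals made equal (−0.63). Srsf3 was not called either (0.42, adjusted p = 0.174). Of 4 ribosomal protein genes only Rpl41 was called, at 62, 39 and 64 against 95, 97 and 139 (1.00, adjusted p = 8.68e-05, and 0.54 without a call after centring). Rps16 passed the p threshold alone, with 117, 126 and 112 against 127, 203 and 203 (0.55, adjusted p = 0.00912), and was called without Ctrl replicate 2 and without Kmt5b sKO replicate 1. Npm1, the nucleolar protein gene, scored 74, 104 and 87 against 96, 122 and 90 (0.22, adjusted p = 0.422).

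Of the noncoding genes with a symbol, Hotair, a long noncoding RNA gene of the Hox clusters, scored 35, 48 and 29 in Ctrl and 50, 86 and 57 in Kmt5b sKO (log2 fold change 0.76, limma adjusted p = 0.0229). Its call was lost under equal totals, centring and quantile normalization (0.56, 0.30 and 0.20), with its own variance, and without Ctrl replicate 3 or Kmt5b sKO replicate 2. Rnu2-10, a U2 small nuclear RNA gene, scored 49, 67 and 41 against 44, 69 and 21 (−0.35, adjusted p = 0.361), and was called lower after centring (−0.81), with quantile normalization (−0.92) and without Kmt5b sKO replicate 2 (−0.73). The rRNA copy on chromosome 17, listed as CT010467.1 and chosen after its values were seen, scored 682, 1010 and 812 against 1607, 1606 and 1432 (0.91, adjusted p = 1.5e-09). Reads of multicopy genes such as these may belong to another copy. Tuba1b, an α-tubulin gene, was the single TSS peak of 45 listed cytoskeleton and matrix genes (−0.19, adjusted p = 0.637). It was called lower after centring (−0.65) and with quantile normalization (−0.77). Lama5, a laminin gene not on that list, had a TSS peak called higher (1.33). The lists of chromatin enzymes and of cancer genes had no TSS peak.

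**Figure D5:**
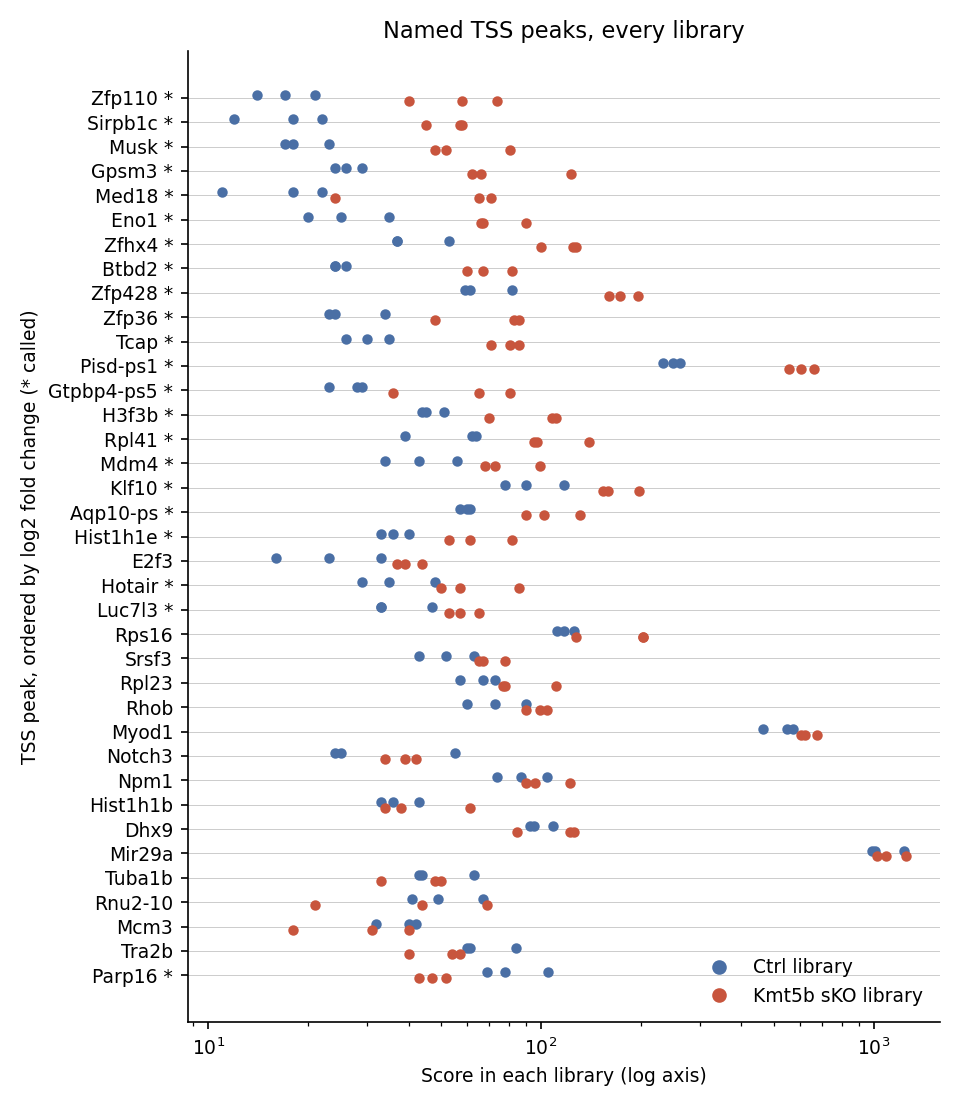
Scores of named TSS peaks in each library on a log axis, ordered by log2 fold change, with Ctrl in blue and Kmt5b sKO in red. An asterisk marks the called peaks. Parp16 at the bottom is the one with all Ctrl libraries higher and a call.

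At the limits of the definition, Cpeb4 lay just inside at 989 bp from its TSS, with scores of 73, 140 and 122 in Ctrl and 123, 111 and 108 in Kmt5b sKO. The nearest RefSeq start of Cpeb4 lay 2259.5 bp from the peak centre. Hist1h4d lay just outside at 1002 bp, with 15, 14 and 21 against 58, 39 and 55. At the level limit, Usp22 was inside with a mean score of 30.7, and Pax7 was outside with a mean of exactly 30, from 15, 14 and 19 in Ctrl and 34, 32 and 66 in Kmt5b sKO. These are given without a test.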

How the data were processed

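DRIP-seq with the S9.6 antibody and Drosophila spike-in DNA was analysed in 3 Ctrl and 3 Kmt5b sKO MuSC libraries, grouped by the sample labels. The 2 input libraries, 1 per genotype, were not used here. Reads were trimmed with Trimmomatic 0.39, aligned to mm10 with STAR 2.7.3a and cleared of duplicates with Picard 2.21.7, per the submitters' processing notes. Peaks were called against input, cleared of blacklisted regions and unified over samples. The value deposited by the authors is a score, the signal summed over each union peak and scaled to spike-in reads, rounded to whole numbers. It is not a read count, so no count model was used, and the reads behind a score, and hence its counting error, are unknown here. The TSS distance, in base pairs, came with the deposited table. Peak coordinates are as deposited, in bins of 200 bp, and a start may lie 1 base before that of a genome browser.

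Autosomal peaks with a mean score over 30 (25815) were tested with limma 3.58.1 in R 4.3.3 (lmFit, eBayes with trend) on log2(score + 1), two-sided, with Benjamini-Hochberg adjustment over all of them. Calls required more than a 1.5-fold change and an adjusted p below 0.1. Fold changes on this scale understate low peaks. The prior degrees of freedom were infinite, so each variance came from the trend with score. In simulated scores, 161 of 200 changed peaks (80.5%) were called, as were 16 unchanged peaks. The simulated noise followed a variance trend as the fit does, so it cannot show how real peaks depart from the trend. Symbols are those of GENCODE vM21, matched by gene identifier for 314 of 315 genes. Base composition was read from GRCm38, and promoters from RefSeq. Python 3.11.15, numpy 2.4.6, pandas 2.3.3 and matplotlib 3.10.9 were used.

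The TSS peaks and the 16 gene lists were chosen with earlier results of these data known, so counts and medians over them are descriptions. Peaks named were the 8 separated called gains with the largest fold changes, called losses, the 6 densest, the 6 smallest changes above a mean score of 100, up to 3 per gene list and those at the limits, with predicted genes in counts only. Outside these rules, some genes were named after their values were seen, among them Atp5o, CT010467.1, Prpf38a, Sf1 and Lama5. Of the 6 densest, 1 is not reported here. Alternatives covered pseudocount, level filter, scaling, variance model, replicate block, sex chromosomes, TSS definition, thresholds and leaving out each library. The subsets without the 6 densest peaks, of protein-coding genes and of RefSeq starts were chosen after seeing the data.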

Additional observations from a re-analysis of the deposited data

Results flagged for a closer look

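The 8 TSS peaks on the X chromosome with a mean score over 30 lie outside the autosomal comparison. Averaged over them, the signal in Kmt5b sKO was above Ctrl. Their mean score was 48.4, 75.5 and 59.1 in the Ctrl libraries and 93.1, 86.4 and 86.6 in those of Kmt5b sKO, with a ratio of 1.45 with no overlap of the groups. The highest was at Asmt, with 90, 118 and 89 in Ctrl and 195, 185 and 197 in Kmt5b sKO. The libraries were separated only at Asmt, Lamp2 and a predicted gene. They overlapped at the other peaks, such as Usp11, with 47, 52 and 43 against 77, 50 and 42. The difference was not tested beyond this description.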

How the results depend on the processing

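The median log2 fold change of TSS peaks (0.75) and the ratio of mean scores per kb (1.93) kept their direction in each alternative under which they were recomputed. The ratio was not recomputed for centring, quantile normalization, the pseudocounts, the variance models, the replicate block or scores per kb, and the call thresholds bear on neither. The number called depended on the scaling. With the same total in each library the calls were 135 higher and 5 lower, the median was 0.55 and the ratio 1.68. Centred on the median peak the values were 74, 12 and 0.29, and with quantile normalization 65, 13 and 0.23. These scalings took 0.20, 0.46 and 0.46 off the log2 fold changes in turn, and of all tested peaks 21.6%, 10.3% and 8.02% were then called higher and 3.12%, 11.9% and 7.7% lower. Requiring a mean score over 100 left 33 higher and 0 lower of 64 peaks, with 0.61 and a ratio of 2.22. The fold change over 2 gave 93 and 0. The single lower call became 2 with a pseudocount of 0.5, without the level filter and without the fold change minimum, and a pseudocount of 5 gave a median of 0.69. With the centre within 500 bp 89 of 141 peaks were called higher, and within 2000 bp 418 higher and 2 lower of 822, with 0.61 and 1.80. With any GENCODE start the values over 1023 peaks were 373, 7, 0.41 and 1.56. Peaks that cover the TSS had a ratio of 2.05, and without the 6 densest peaks it was 1.65. Protein-coding genes had 105 of 214 called higher and a median of 0.61, and the 158 peaks at RefSeq starts 76 and 0, with 0.60 and 1.59. The subsets by distance, start or gene class used the main fit, in which 32.9% of all tested peaks were called higher. In the subsets fewer or more peaks were counted by construction, and for the scalings the cause was not tested. With the replicate block 178 were called higher and 1 lower. Replicate numbers shared only a number, since the deviations of same-numbered libraries correlated at −0.009, 0.011 and −0.027. With each peak's own variance 124 were called higher. Leaving out 1 library gave 155 to 187 called higher, 2 to 4 lower, a median of 0.69 to 0.75 and a ratio of 1.86 to 2.04, with 2 lower without any of the Ctrl libraries or Kmt5b sKO replicate 1, 4 without Kmt5b sKO replicate 2 and 3 without Kmt5b sKO replicate 3.

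Of the 23 named peaks called, none changed direction in 395 alternative values and 35 values lost the call, 10 of them after centring. Of 366 alternative values of peaks not called, 17 gained a call, among them lower calls at Tra2b, Mcm3, Rnu2-10 and Tuba1b after centring and with quantile normalization. Of peaks not called, several had log2 fold changes below 0 with the same total per library, at Mir29a (−0.15), Ppp4c (−0.19), Fermt3 (−0.13), Cpeb4 (−0.12) and Dhx9 (−0.06). Centring on the median peak did so at Ubb (−0.24), Mir29a (−0.4), Ppp4c (−0.44), Fermt3 (−0.38), Cpeb4 (−0.38), Dhx9 (−0.31), Hist1h1b (−0.25), Npm1 (−0.24), Notch3 (−0.22), Myod1 (−0.19), Rhob (−0.05), Rpl23 (−0.04) and Srsf3 (−0.04). Quantile normalization did so at Ubb (−0.23), Ppp4c (−0.05), Fermt3 (−0.05), Cpeb4 (−0.24), Dhx9 (−0.2), Hist1h1b (−0.44), Npm1 (−0.16), Notch3 (−0.35), Rhob (−0.01), Rpl23 (−0.04) and Srsf3 (−0.1). Leaving out 1 library turned the sign in ranges around 0 at Mir29a (−0.02 to 0.16), Dnase1 (−0.11 to 0.10), Ppp4c (−0.10 to 0.19), Cpeb4 (−0.20 to 0.27), Rnu2-10 (−0.73 to 0.10) and Hist1h1b (−0.04 to 0.37).

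The deposited scores carry no read numbers, so depth limits could not be set, and low peaks rest on few score units. With 3 libraries per group, separated groups are the most that single peaks can show without the fit over all peaks. Spike-in scaling rests on numbers not used here.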
